A study of Mus musculus with 12 samples.

Results

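The genes described here encode the route by which pyruvate and malate reach and pass the tricarboxylic acid (TCA) cycle in mouse liver. They were chosen by symbol as a fixed list of 37 genes, and all 37 were found among the 24537 genes of the deposited table. Of the 37 members, 35 passed the filter on low values, set at 1 FPKM or more in 3 or more libraries, and 10593 genes of the whole table did so. FPKM, the fragments on a gene scaled by the length of its exons and by the reads of the library, is the deposited measure of transcript level. Pdk3 and Me2 did not pass and are described without a test.

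Liver RNA was sequenced from 12 male C57Bl/6J mice in 4 groups of 3. Con mice were fed ad libitum on the NIH41 diet for 25 or 30 days. CR mice received a fortified NIH41 diet with 30% fewer calories for the same 25 or 30 days, given daily at noon and adjusted each week to hold body weight below that of Con mice. In every group, the mice entered the study at 6 weeks of age, were housed singly with lights on in the morning, and drank heavy water for the last days before the liver was taken. The study placed these days on either side of a change in hepatic protein synthesis rates, so the comparisons ask which transcripts differed under CR at each day and whether that difference itself changed. Each library came from a piece of whole liver. Fewer cells of a type and less RNA per cell therefore cannot be told apart.

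Pyruvate enters mitochondria through a carrier made of MPC1 and MPC2. Inside, the pyruvate dehydrogenase complex converts it to acetyl-CoA, while pyruvate carboxylase converts it to oxaloacetate, the first step of gluconeogenesis and a refill of the cycle. Pyruvate dehydrogenase kinases switch the complex off and phosphatases switch it on again. The cycle oxidizes acetyl-CoA and feeds electrons to the respiratory chain, in part through succinate dehydrogenase, which is also complex II of that chain. The malate-aspartate shuttle moves reducing equivalents between cytosol and mitochondria, and its enzymes also serve the exit of oxaloacetate carbon as malate or aspartate in a fasting liver.

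The depth of the libraries ranged from 15748725 to 23345544 reads, of which 78.1% to 84.3% lay on exons. At that depth the lowest count of any tested member other than Mpc1 was 396 reads, while Mpc1 rested on 29 to 80 reads per library. The summed FPKM of 11 hepatocyte markers was 46881 to 53632 in Con mice and 53451 to 57092 in CR mice at day 25, and 38785 to 48059 and 56276 to 67789 at day 30. Of the 11 markers, 2 were called higher and 0 lower at day 25, and 5 were called higher and 1 lower at day 30. The 10 Kupffer cell markers summed to 73.8 to 121.5 FPKM in Con mice and 47.7 to 56.9 FPKM in CR mice at day 25, with 7 called lower. At day 30, these sums were 64.2 to 94.8 and 61.2 to 86.0 FPKM, with 1 marker called higher. The 8 sinusoidal endothelial markers summed to 47.1 to 71.3 and 64.5 to 76.7 FPKM at day 25 (1 called higher) and to 49.6 to 52.4 and 67.1 to 75.0 FPKM at day 30 (6 called higher). The 8 stellate cell markers summed to 54.7 to 64.7 and 68.0 to 71.3 FPKM at day 25 (1 called higher) and to 52.1 to 63.3 and 72.7 to 85.9 FPKM at day 30, where 3 of the 7 tested were called higher. Cholangiocyte sums lay between 7.60 and 17.9 FPKM and red blood cell sums between 176.5 and 955.8 FPKM, with groups that overlapped at each day, and 1 of the 4 red blood cell markers, Alas2, was called lower at each day. The lists for lymphocytes, neutrophils, and pancreas, fat or muscle stayed at or under 4.70 FPKM in every library. Over all genes tested, 5.60% were called higher and 9.34% lower at day 25, and 8.33% higher and 16.4% lower at day 30. The part of these cell types in the results below was not tested.

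The 37 transcripts spanned a wide range of levels. Averaged over the 12 mice, 13 members lay at 100 FPKM or more, 20 lay between 10 and 100 FPKM, and 4 lay below 10 FPKM. The highest were Got1 with 250.6 FPKM and Mdh1 with 245.7 FPKM, the cytosolic aspartate aminotransferase and the cytosolic malate dehydrogenase of the shuttle, followed by Mpc2 with 167.0 FPKM. The 4 genes of succinate dehydrogenase had like levels per length, with Sdhb at 165.2, Sdha at 160.5, Sdhc at 134.4 and Sdhd at 131.6 FPKM. Other assemblies were less even. Mpc1 was at 3.14 FPKM beside its partner Mpc2, and Idh3a, the catalytic subunit of the NAD-dependent isocitrate dehydrogenase, was at 14.9 FPKM beside 104.5 FPKM for Idh3b and 40.7 FPKM for Idh3g. The reads were mapped with BWA, which does not model splice junctions, in a mode that is not stated. Transcripts with short exons may be undercounted, and the share of reads across junctions per member was not measured. Mpc1 also shares genomic span with 4930506C21Rik on the other strand (mean 2.62 FPKM), and reads of the pair cannot be told apart where exons overlap.

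**Figure D1:**
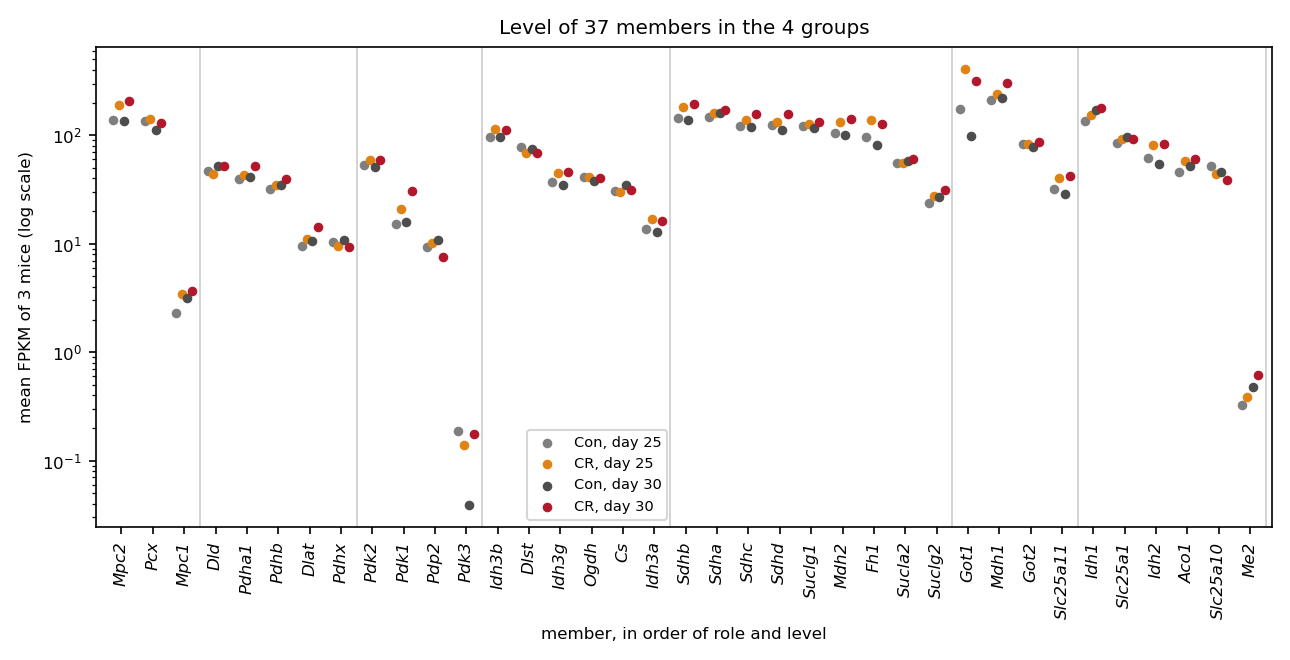
Mean FPKM of 3 mice per group on a log axis for the 37 members, ordered by role and level and coloured by diet and day. Got1 and Mdh1 are the highest on average over all mice, Pdk3 and Me2 lie below 1 FPKM in every group, and the gap between Con and CR is widest for Got1 among the members above the filter.

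More of these transcripts were higher than lower in CR mice. At day 25, 6 of the 35 tested members passed an adjusted p under 0.1 (17.1%), all of them higher in CR mice. These were Got1, Fh1, Mpc2, Pdk1, Mpc1 and Aco1. Over all 10593 genes, 14.9% passed at that day, 5.60% higher and 9.34% lower, so the share of members called was near the background while their direction was upward in all 6. At day 30, 16 members passed (45.7%), 15 higher and 1 lower, where the background was 24.7%, with 8.33% higher and 16.4% lower. The 15 were Got1, Pdk1, Fh1, Idh2, Mpc2, Slc25a11, Mdh2, Sdhb, Mdh1, Sdhd, Dlat, Sdhc, Idh3g, Pdha1 and Idh3a, and the lower one was Pdp2. Mpc2, Pdk1, Fh1 and Got1 were called at each day.

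The median log2 fold change of the 35 members was 0.17 at day 25, against -0.04 for all genes, and 0.20 at day 30, against -0.07. The log2 fold change was positive for 29 members and negative for 6 at day 25, and positive for 28 and negative for 7 at day 30. Under quantile normalization, the median at day 25 was 0.0845, against -0.0044 for all genes, with 25 positive and 10 negative. Only Got1 also reached an absolute log2 fold change of 1, and it did so at each day, where 1.48% of all genes passed both thresholds at day 25 and 2.21% at day 30. At day 25, the 3 CR mice all lay above the 3 Con mice for 12 members and all below for 1, with no overlap in 28.2% of all genes. At day 30, they lay above for 20 members and below for 2, against 36.4% of all genes. With day as a covariate, 6 CR against 6 Con mice called 20 members higher and 0 lower (57.1%), where 40.6% of all genes were called, 14.5% higher and 26.1% lower. Pdk2, Idh3b and Suclg2 were called in that comparison and at neither day on its own.

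The calls at day 25 rested on few mice. Leaving out Con mouse 1 left 1 member called, leaving out CR mouse 2 or CR mouse 3 left 2, and leaving out Con mouse 3 left 3. Got1 was the member that stayed called whichever of the 6 mice was left out. At day 30, leaving out CR mouse 1 left 10 members called, and Mpc2, Dlat, Pdk1, Sdhd, Fh1, Mdh2, Got1 and Idh2 stayed called whichever mouse was left out. Same-numbered Con and CR mice deviated together at day 25. With the replicate block for these pairs, 9 members were called higher there, with Idh2, Mdh2, Slc25a11 and Suclg2 added and Pdk1 lost. The block called 855 genes of the whole table higher and 1299 lower at day 25, against 593 and 989 without it. Under median-ratio scaling between libraries, 14 members were called higher at day 25, and 20 higher and 1 lower at day 30. That scaling called 929 genes of the whole table higher and 799 lower at day 25, against 593 and 989 as deposited, and 1319 higher and 1238 lower at day 30, against 882 and 1737. Quantile normalization called 758 higher and 828 lower at day 25, and 1252 higher and 1217 lower at day 30.

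**Figure D2:**
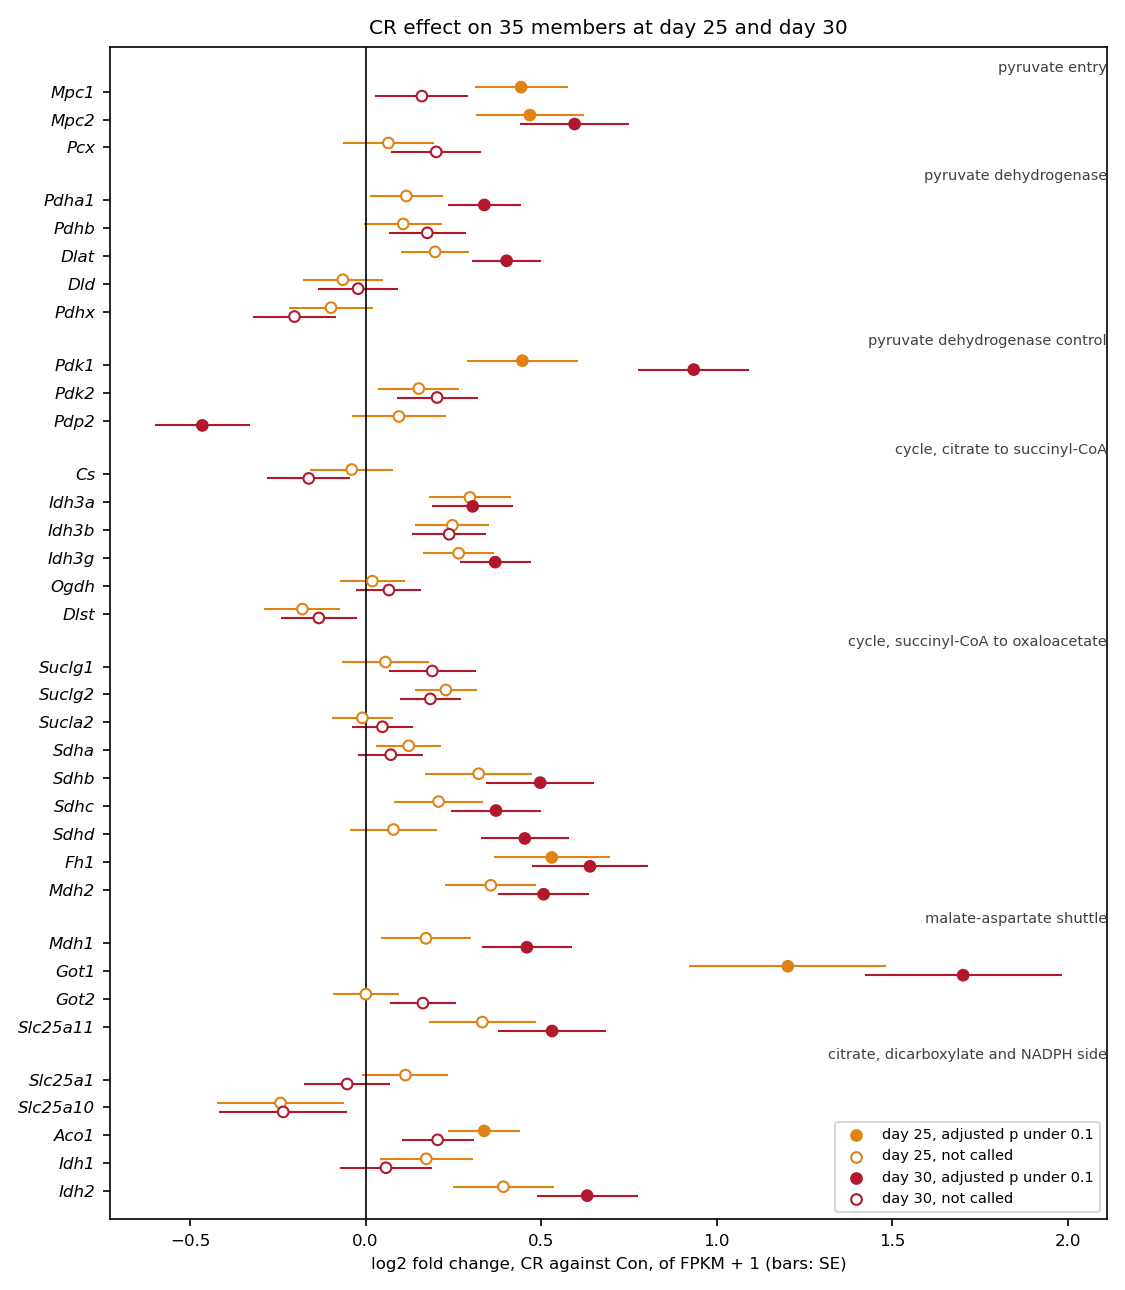
Log2 fold change of FPKM + 1, CR against Con, with its standard error, for the 35 tested members at day 25 and day 30, grouped by role. Filled points passed an adjusted p under 0.1, which was 6 members at day 25 and 16 at day 30, and only Pdp2 at day 30 is filled on the negative side.

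The malate-aspartate shuttle held the largest difference. Got1 encodes the cytosolic aspartate aminotransferase, which interconverts aspartate and oxaloacetate, and it lies on chromosome 19 at 43499753 to 43524605 on the minus strand (mm10). At day 25, Got1 was at 148, 169 and 205 FPKM in the Con mice and at 358, 321 and 551 FPKM in the CR mice. At day 30, the Con mice were at 103, 63.4 and 131 FPKM and the CR mice at 421, 238 and 299 FPKM. All CR mice lay above all Con mice at each day, and no CR mouse of either day came as low as a Con mouse of either day. The mean FPKM was 2.35 times that of Con mice at day 25 and 3.23 times at day 30. Mean FPKM was 174 ± 29.1 in Con mice and 410 ± 124 in CR mice at day 25, and 98.8 ± 33.7 and 319 ± 93.2 at day 30 (SD, n = 3). The log2 fold change was 1.20 (SE 0.28, adjusted p = 0.0202) at day 25 and 1.70 (SE 0.28, adjusted p = 0.00216) at day 30. The Con mice themselves were lower at day 30 than at day 25 without overlap, with a log2 fold change of -0.86 that did not pass over all genes (adjusted p = 0.556).

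Its mitochondrial counterpart, Got2, was not called at either day. At day 25, Got2 was at 79.7 to 86.3 FPKM in Con mice and at 75.8 to 91.5 FPKM in CR mice, with overlap. At day 30, it was at 75.8 to 80.0 FPKM in Con mice and at 85.1 to 90.6 FPKM in CR mice, without overlap. Its log2 fold change was 0.00085 at day 25 (adjusted p = 0.997) and 0.16 at day 30 (adjusted p = 0.253). Got2 was called higher at day 30 under median-ratio scaling, by voom on recovered reads and with the trend on length removed. The ratio of Got1 to Got2 within a mouse is not altered by a common factor for all genes of a library. This ratio was 1.86 to 2.38 in Con mice and 3.51 to 7.27 in CR mice at day 25. At day 30, it was 0.837 to 1.69 in Con mice and 2.62 to 4.95 in CR mice. Every CR mouse had a higher ratio than any Con mouse of either day.

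The promoter of Got1 is shown because this gene carried the largest difference, next to that of Fh1, called at each day, and that of Mdh2, called at day 30. The sequences are the 250 bases before the RefSeq transcription start in GRCm38.p6, in the direction of the gene, and each window ends where the deposited transcript begins. The Got1 window is chr19:43524606-43524855 on the minus strand, the Fh1 window is chr1:175625636-175625885 on the minus strand, and the Mdh2 window is chr5:135778399-135778648 on the plus strand. Capitals mark CCAAT boxes, read on either strand as CCAAT or ATTGG, and in Mdh2 a cAMP response element, TGACGTCA.
Got1: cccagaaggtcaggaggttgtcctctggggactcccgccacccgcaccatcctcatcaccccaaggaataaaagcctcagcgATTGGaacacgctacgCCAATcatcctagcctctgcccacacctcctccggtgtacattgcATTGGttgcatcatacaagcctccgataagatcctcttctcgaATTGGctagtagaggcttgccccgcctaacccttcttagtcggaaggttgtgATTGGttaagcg
Fh1: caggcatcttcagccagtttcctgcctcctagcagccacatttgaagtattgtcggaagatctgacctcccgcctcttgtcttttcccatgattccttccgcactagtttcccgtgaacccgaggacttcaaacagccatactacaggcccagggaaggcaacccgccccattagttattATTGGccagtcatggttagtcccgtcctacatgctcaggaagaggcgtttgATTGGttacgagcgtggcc
Mdh2: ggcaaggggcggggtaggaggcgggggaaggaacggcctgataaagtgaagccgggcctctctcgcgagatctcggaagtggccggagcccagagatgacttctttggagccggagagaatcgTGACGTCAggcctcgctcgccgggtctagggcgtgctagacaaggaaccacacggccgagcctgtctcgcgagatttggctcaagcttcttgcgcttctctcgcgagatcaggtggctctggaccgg

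The Got1 window holds 5 CCAAT boxes, which begin 168, 152, 107, 64 and 12 bases before the start, and 63 of the 27025 mouse promoter windows (0.233%) hold as many. Fh1 holds 2, as 10.5% of windows do or exceed, and Mdh2 holds none. Of the 33 tested members with a window, 18 hold at least 1 CCAAT box and 20 hold a GC box (GGGCGG), found in 34.5% and 32.9% of all windows and in 36.6% and 59.2% of the 8164 windows of tested genes. These motifs were chosen after the sequences were seen. The cAMP response element is in Mdh2, 127 bases before the start, and in Ogdh, and in 1.62% of all windows and 2.82% of those of tested genes. The letters searched for the estrogen-related receptor (TNAAGGTCA), NRF1 (CGCATGCG), forkhead factors (GTAAACA) and GABPA (CCGGAAGT) are in none of the 33 windows, in 1.14%, 1.58%, 3.09% and 2.93% of all windows, and in 0.686%, 3.42%, 2.22% and 6.41% of those of tested genes. Each motif was read on both strands, and some of the CCAAT and GC boxes lie next to each other.

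Mdh1, the cytosolic malate dehydrogenase, was higher at day 30. Its FPKM at day 25 was 191, 242 and 208 in Con mice and 220, 258 and 242 in CR mice, so the groups overlapped (log2 fold change 0.17, adjusted p = 0.449). The values at day 30 were 215, 202 and 252 in Con mice and 337, 309 and 274 in CR mice, which did not overlap (log2 fold change 0.46, SE 0.13, adjusted p = 0.0302). The call at day 30 was lost without CR mouse 1 (adjusted p = 0.119) and without Con mouse 2 (adjusted p = 0.103).

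Slc25a11 encodes the carrier that exchanges alpha-ketoglutarate for malate across the inner membrane. Con mice had 25.7, 37.6 and 31.9 FPKM and CR mice 37.6, 46.3 and 36.1 FPKM at day 25, with overlap. Con mice had 31.4, 25.96 and 29.7 FPKM and CR mice 46.6, 45.1 and 35.8 FPKM at day 30, without overlap. The effect was 0.33 on the log2 scale (SE 0.15, adjusted p = 0.201) at day 25, where the replicate block gave an adjusted p of 0.0989, and 0.53 (SE 0.15, adjusted p = 0.0338) at day 30. The call at day 30 was lost without CR mouse 1 (adjusted p = 0.125) and without Con mouse 2 (adjusted p = 0.113). Of these 4 shuttle genes, 1 was called higher at day 25 and 3 at day 30, where 5.60% and 8.33% of all genes were. The shuttle also needs a carrier that exchanges aspartate for glutamate, and neither of its 2 genes, which are not members and were named after their values were seen, was called at either day. Slc25a12 had log2 fold changes of 0.00698 (adjusted p = 0.975) and 0.029 (adjusted p = 0.855), and Slc25a13 had 0.21 (adjusted p = 0.187) and 0.12 (adjusted p = 0.417). Slc25a13, with a mean of 87.6 FPKM beside 5.53 FPKM for Slc25a12, was called higher over both days (0.16, adjusted p = 0.0671), as were 14.5% of all genes. For Slc25a13, all CR mice lay above all Con mice at day 25, and the groups overlapped at day 30.

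**Figure D3:**
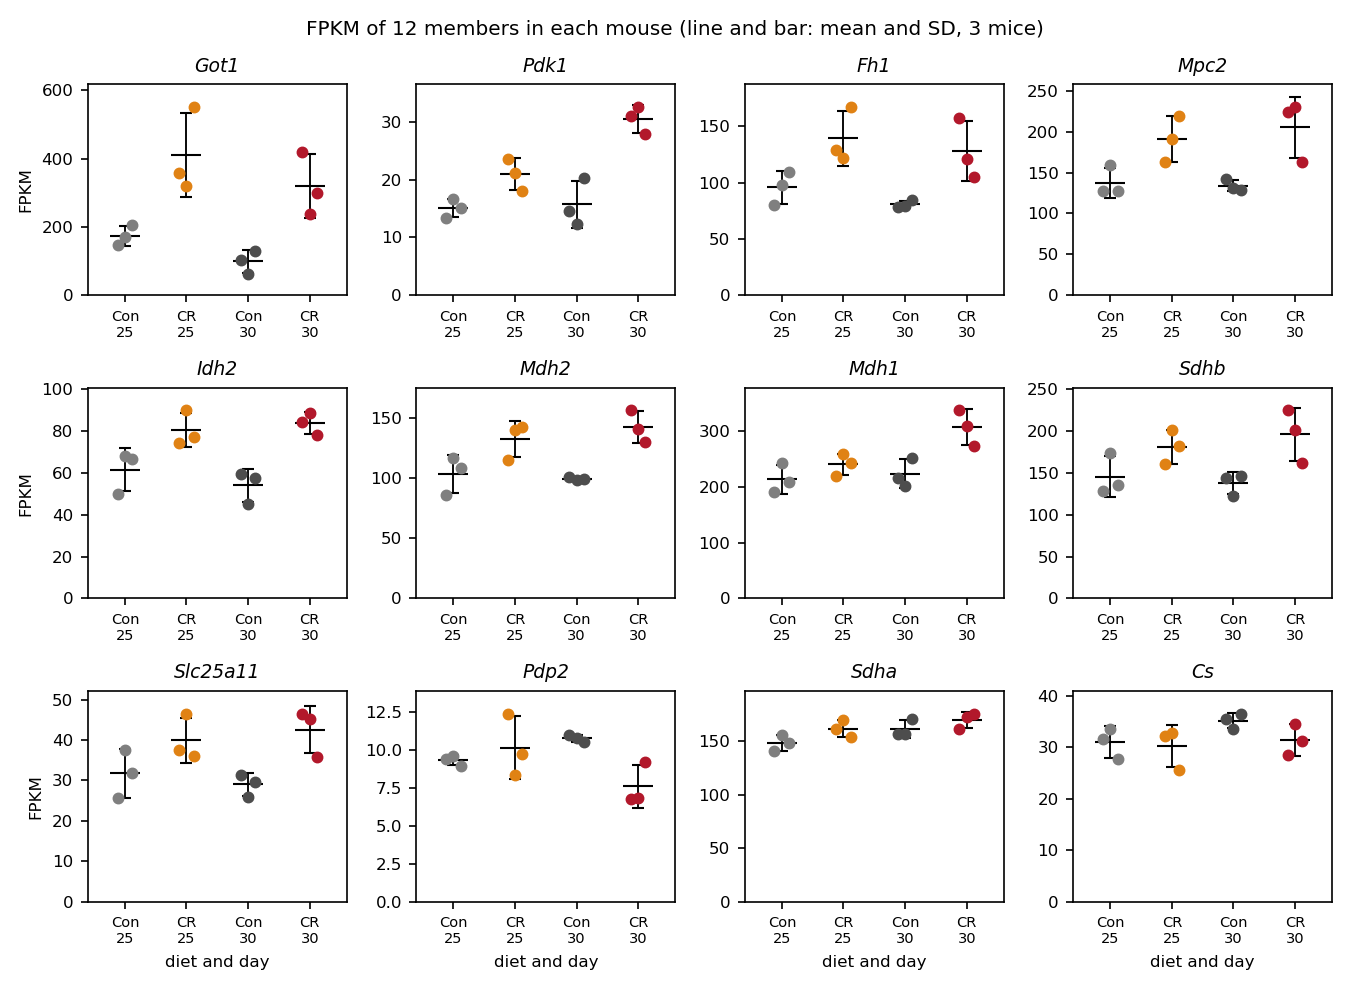
FPKM of each mouse, with the mean and SD of 3 mice, for 12 members by diet and day, each axis starting at 0. CR mice lie above Con mice without overlap at each day for Got1, Pdk1, Fh1, Mpc2 and Idh2, at day 30 alone for Mdh2, Mdh1, Sdhb and Slc25a11, below them at day 30 for Pdp2, and overlap with them for Sdha and Cs.

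Of the genes of pyruvate entry, Mpc2 was called higher at each day. It encodes a subunit of the mitochondrial pyruvate carrier and lies on chromosome 1 at 165461208 to 165481214. At day 25, Mpc2 was at 127, 159 and 127 FPKM in Con mice and at 163, 191 and 219 FPKM in CR mice. At day 30, the Con mice were at 142, 131 and 129 FPKM and the CR mice at 224, 230 and 162 FPKM. The groups did not overlap at either day. Its log2 fold change was 0.47 (SE 0.15, adjusted p = 0.0791) at day 25 and 0.60 (SE 0.15, adjusted p = 0.0217) at day 30, and the call at day 25 was lost in 4 of the 6 fits that left out a mouse, with an adjusted p of up to 0.248 without CR mouse 3.

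Mpc1, the partner subunit, was counted from few reads. It was at 2.23, 1.75 and 2.90 FPKM in Con mice and at 3.19, 3.88 and 3.26 FPKM in CR mice at day 25, without overlap (log2 fold change 0.44, SE 0.13, adjusted p = 0.0565). At day 30, Mpc1 was at 3.47, 3.07 and 2.95 FPKM in Con mice and at 3.81, 4.17 and 3.04 FPKM in CR mice, with overlap (log2 fold change 0.16, adjusted p = 0.427). Because 1 is added before the log is taken, the fold change understates the ratio of such low levels, which was 1.501 at day 25 on the FPKM scale. The call at day 25 was lost in 4 of the 6 fits that left out a mouse, with an adjusted p of up to 0.163 without Con mouse 2. Pcx, the pyruvate carboxylase that makes oxaloacetate, had log2 fold changes of 0.06 (adjusted p = 0.806) and 0.20 (adjusted p = 0.305).

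The pyruvate dehydrogenase complex was called in part at day 30 and in no member at day 25. Dlat, the acetyltransferase that forms the core of the complex, was at 9.60, 10.03 and 9.17 FPKM in Con mice and at 11.05, 10.9 and 11.5 FPKM in CR mice at day 25. At day 30, Dlat was at 10.1, 9.75 and 11.8 FPKM in Con mice and at 13.4, 16.1 and 13.3 FPKM in CR mice. The groups did not overlap at either day, and the log2 fold change was 0.20 (SE 0.10, adjusted p = 0.229) at day 25 and 0.40 (SE 0.10, adjusted p = 0.0162) at day 30. Pdha1, the catalytic alpha subunit of the complex, had a log2 fold change of 0.12 (adjusted p = 0.527) at day 25 and of 0.34 (adjusted p = 0.0431) at day 30, which was lost without Con mouse 1 (adjusted p = 0.153) and without CR mouse 2 (adjusted p = 0.107). Its span overlaps the end of Map3k15 on the other strand (mean 5.74 FPKM). The other subunits were not called at either day. On the log2 scale at day 25 and day 30, Pdhb, the beta subunit, had 0.11 and 0.18. Dld, the dehydrogenase that the complex shares with the alpha-ketoglutarate complex, had -0.06 and -0.02. Pdhx, which binds that dehydrogenase to the core, had -0.10 and -0.20. For Pdhx, all CR mice lay below all Con mice at day 25, and the groups overlapped at day 30.

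The enzymes that control the complex moved in opposite directions at day 30. Pdk1, a kinase that inactivates pyruvate dehydrogenase, lies on chromosome 2 at 71873224 to 71903858. At day 25, Pdk1 was at 13.4, 16.7 and 15.2 FPKM in Con mice and at 23.6, 21.3 and 18.1 FPKM in CR mice. The levels at day 30 were 14.6, 12.4 and 20.3 FPKM in Con mice and 31.0, 32.6 and 28.0 FPKM in CR mice. The groups stood apart at each day, more widely at day 30, where the mean was 1.93 times that of Con mice. This gave a log2 fold change of 0.45 (SE 0.16, adjusted p = 0.0993) at day 25 and 0.93 (SE 0.16, adjusted p = 0.00245) at day 30. The call at day 25 was lost with the replicate block (adjusted p = 0.121) and whichever mouse was left out (adjusted p up to 0.258, without Con mouse 1), while that at day 30 stayed in all 6 such fits.

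Pdp2, a phosphatase that activates the complex again, was lower at day 30. It was at 9.41, 9.61 and 8.97 FPKM in Con mice and at 12.4, 8.32 and 9.73 FPKM in CR mice at day 25, with overlap. At day 30, Pdp2 was at 10.96, 10.8 and 10.5 FPKM in Con mice and at 6.74, 6.81 and 9.22 FPKM in CR mice, without overlap. The log2 fold change was 0.10 (SE 0.13, adjusted p = 0.715) at day 25 and -0.46 (SE 0.13, adjusted p = 0.0343) at day 30, and the latter call was lost without CR mouse 1 (adjusted p = 0.130) and without CR mouse 2 (adjusted p = 0.1002). The ratio of Pdk1 to Pdp2 within a mouse was 1.43 to 1.74 in Con mice and 1.86 to 2.55 in CR mice at day 25, and 1.15 to 1.93 and 3.03 to 4.78 at day 30.

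Pdk2, the kinase with the highest level among the members, had log2 fold changes of 0.15 (adjusted p = 0.457) and 0.20 (adjusted p = 0.247) and was called over both days (0.18, SE 0.08, adjusted p = 0.0988). That call was lost in 9 of the 12 fits that left out a mouse, with an adjusted p of up to 0.196 without Con mouse 2 of day 30, and under quantile normalization (adjusted p = 0.168). The ratio of Pdk1 to Pdk2 within a mouse was 0.275 to 0.293 in Con mice and 0.312 to 0.417 in CR mice at day 25, and 0.265 to 0.357 and 0.469 to 0.542 at day 30. Pdk3 was near the limit of detection. Its reads numbered 9, 6 and 5 in Con mice and 8, 4 and 4 in CR mice at day 25, and 1, 2 and 2 in Con mice and 7, 7 and 9 in CR mice at day 30. The groups overlapped at day 25 and stood apart by a few reads at day 30.

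In the span of the cycle from citrate to succinyl-CoA, the NAD-dependent isocitrate dehydrogenase was called and its neighbours were not. Idh3g, a regulatory subunit, was at 34.3, 37.5 and 40.4 FPKM in Con mice and at 41.9, 49.8 and 43.8 FPKM in CR mice at day 25. At day 30, Idh3g was at 34.3, 35.7 and 34.6 FPKM in Con mice and at 49.8, 42.9 and 43.7 FPKM in CR mice. All CR mice lay above all Con mice at each day, with log2 fold changes of 0.27 (SE 0.10, adjusted p = 0.127) and 0.37 (SE 0.10, adjusted p = 0.0280). The call at day 30 was lost without CR mouse 1 (adjusted p = 0.113). Idh3a had 0.30 (adjusted p = 0.133) and 0.31 (adjusted p = 0.0907), and its call at day 30 was kept in 1 of the 6 fits that left out a mouse. Idh3b had 0.25 (adjusted p = 0.166) and 0.24 (adjusted p = 0.142), and the 3 CR mice of each day lay above the Con mice for Idh3a and Idh3b as well. Over both days, the 3 subunits had log2 fold changes of 0.30, 0.24 and 0.32 for Idh3a, Idh3b and Idh3g, with adjusted p of 0.0113, 0.0197 and 0.00440.

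The enzymes on either side of this step were not called. Cs, the citrate synthase that opens the cycle and is often used as a gauge of mitochondrial content, had log2 fold changes of -0.04 (adjusted p = 0.877) and -0.16 (adjusted p = 0.371), with 25.5 to 36.5 FPKM over all 12 mice. Ogdh and Dlst, the dehydrogenase and the core of the alpha-ketoglutarate complex, had 0.02 and 0.07 for Ogdh and -0.18 and -0.13 for Dlst. At day 30, all CR mice lay below all Con mice for Dlst, at 65.8 to 72.3 against 73.6 to 75.9 FPKM. The groups overlapped for Dlst at day 25. Dlst was called lower over both days under TPM, under quantile normalization, and with the trends on length and level removed.

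The span from succinyl-CoA to oxaloacetate had 1 of 9 members called higher at day 25 and 5 of 9 at day 30, where 5.60% and 8.33% of all genes were. Fh1, the fumarase that hydrates fumarate to malate, lies on chromosome 1 at 175601378 to 175625635. At day 25, Fh1 was at 80.3, 98.0 and 109 FPKM in Con mice and at 129, 122 and 167 FPKM in CR mice. At day 30, Fh1 was at 78.5, 78.9 and 84.6 FPKM in Con mice and at 157, 121 and 105 FPKM in CR mice. The groups did not overlap at either day. For Fh1, the log2 fold change was 0.53 (SE 0.17, adjusted p = 0.0658) at day 25 and 0.64 (SE 0.17, adjusted p = 0.0214) at day 30, and the former was lost in 4 of the 6 fits that left out a mouse, with an adjusted p of up to 0.221 without CR mouse 3. The ratio of Fh1 to Cs within a mouse was 2.54 to 3.96 in Con mice and 3.72 to 6.55 in CR mice at day 25, and 2.22 to 2.35 and 3.37 to 5.54 at day 30.

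Mdh2, the mitochondrial malate dehydrogenase that closes the cycle, was higher at day 30. At day 25, Mdh2 was at 86.3, 117 and 109 FPKM in Con mice and at 116, 140 and 143 FPKM in CR mice. At day 30, Mdh2 was at 101, 98.5 and 99.8 FPKM in Con mice and at 157, 141 and 130 FPKM in CR mice. The groups overlapped in 1 mouse each at day 25 and stood apart at day 30. For Mdh2, the log2 fold change was 0.36 (SE 0.13, adjusted p = 0.109) at day 25, where the replicate block gave an adjusted p of 0.0371, and 0.51 (SE 0.13, adjusted p = 0.0208) at day 30.

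Of the 4 subunits of succinate dehydrogenase, which oxidizes succinate to fumarate, Sdhb, Sdhc and Sdhd were called higher at day 30 and Sdha was not. Sdhb, the iron-sulfur subunit, was at 128, 174 and 135 FPKM in Con mice and at 161, 201 and 183 FPKM in CR mice at day 25. At day 30, Sdhb was at 144, 123 and 147 FPKM in Con mice and at 225, 202 and 161 FPKM in CR mice. Its groups overlapped at day 25 and not at day 30, with log2 fold changes of 0.32 (SE 0.15, adjusted p = 0.215) and 0.50 (SE 0.15, adjusted p = 0.0443).

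Sdhc and Sdhd anchor the enzyme in the inner membrane. Sdhc was at 109, 141 and 113 FPKM in Con mice and at 131, 151 and 136 FPKM in CR mice at day 25, and at 121, 115 and 126 FPKM and at 171, 168 and 133 FPKM at day 30. Sdhd was at 113, 133 and 130 FPKM in Con mice and at 124, 144 and 129 FPKM in CR mice at day 25, and at 122, 104 and 113 FPKM and at 155, 179 and 133 FPKM at day 30. Both overlapped at day 25 and stood apart at day 30. The log2 fold change of Sdhc was 0.21 (adjusted p = 0.341) and 0.37 (SE 0.13, adjusted p = 0.0663), and that of Sdhd was 0.08 (adjusted p = 0.748) and 0.45 (SE 0.12, adjusted p = 0.0280). Sdha, the flavoprotein subunit, was at 141 to 156 FPKM in Con mice and at 154 to 170 FPKM in CR mice at day 25, and at 157 to 171 and 161 to 176 FPKM at day 30, with log2 fold changes of 0.12 (adjusted p = 0.451) and 0.07 (adjusted p = 0.627). The ratio of Sdhb to Sdha within a mouse was 0.780 to 0.917 in Con mice and 0.917 to 1.39 in CR mice at day 30, where the highest Con mouse and the lowest CR mouse met. For Sdhc and Sdhd, these ratios overlapped at day 30. The call of Sdhb at day 30 was lost without CR mouse 1 (adjusted p = 0.171), CR mouse 2 (adjusted p = 0.102) or Con mouse 2 (adjusted p = 0.142). That of Sdhc was lost in 5 of the 6 fits that left out a mouse, all but the one without CR mouse 3, with an adjusted p of up to 0.213 without CR mouse 1, and that of Sdhd stayed in all 6.

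The succinyl-CoA ligase genes were not called at either day. Suclg2, the GTP-forming beta subunit, had log2 fold changes of 0.23 (adjusted p = 0.126, and 0.0940 with the replicate block) and 0.18 (adjusted p = 0.169) and was called over both days (0.21, SE 0.06, adjusted p = 0.0170). Suclg1, the alpha subunit, had 0.06 and 0.19, and Sucla2, the ATP-forming beta subunit, had -0.01 and 0.05.

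Among the enzymes and carriers beside the cycle, Idh2 was called at day 30 and Aco1 at day 25. Idh2 is the mitochondrial isocitrate dehydrogenase that makes NADPH, and it lies on chromosome 7 at 80094847 to 80115350. At day 25, Idh2 was at 49.8, 68.0 and 66.9 FPKM in Con mice and at 74.5, 90.04 and 77.4 FPKM in CR mice. At day 30, Idh2 was at 59.8, 45.2 and 57.4 FPKM in Con mice and at 84.5, 88.8 and 78.3 FPKM in CR mice. The groups did not overlap at either day. For Idh2, the log2 fold change was 0.39 (SE 0.14, adjusted p = 0.110) at day 25, where the replicate block gave an adjusted p of 0.0738, and 0.63 (SE 0.14, adjusted p = 0.0116) at day 30.

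Idh1, the cytosolic enzyme of the same reaction, had log2 fold changes of 0.17 (adjusted p = 0.458) and 0.06 (adjusted p = 0.798). The ratio of Idh2 to Idh1 within a mouse was 0.340 to 0.522 in Con mice and 0.442 to 0.593 in CR mice at day 25, with overlap, and 0.287 to 0.337 and 0.422 to 0.514 at day 30, without. Aco1, the cytosolic aconitase that also serves as iron regulatory protein, had 0.34 (SE 0.10, adjusted p = 0.0599) and 0.21 (adjusted p = 0.191), and its call at day 25 was kept in 2 of the 6 fits that left out a mouse (adjusted p up to 0.178, without Con mouse 1). The citrate carrier Slc25a1 had 0.11 and -0.05, and the dicarboxylate carrier Slc25a10 had -0.24 and -0.23, none of them called. Over both days, Slc25a10 had -0.24 (adjusted p = 0.158). It was called lower there under TPM, under quantile normalization, and without Con mouse 1 or CR mouse 2 of day 25. Me2, a mitochondrial malic enzyme that turns malate into pyruvate, stayed at 0.195 to 0.886 FPKM in the 12 mice, from 8 to 42 reads, with groups that overlapped at each day.

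**Figure D4:**
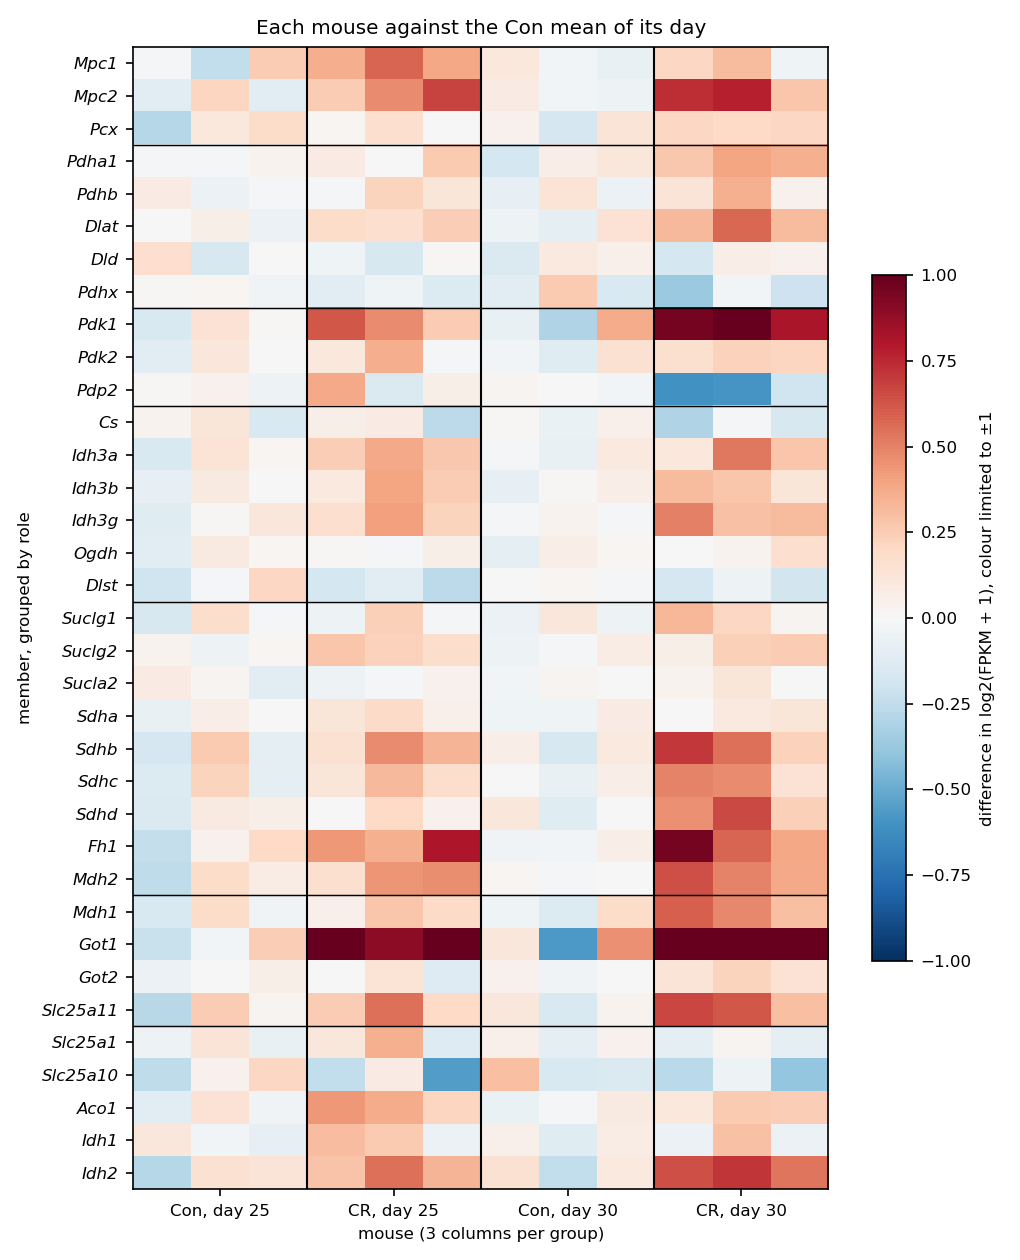
Difference in log2(FPKM + 1) between each mouse and the mean of the 3 Con mice of its day, for the 35 tested members in rows grouped by role, with colours limited to 1 in either direction. The 3 CR mice of day 30 are red for the 15 members called higher and blue for Pdp2, and Got1 reaches the limit in most CR mice.

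Whether the CR effect itself changed between day 25 and day 30 was tested as the difference of the differences. By limma, 0 of the 35 members passed, 2 had an unadjusted p under 0.05, and voom on recovered reads also called 0. Over all genes, 0.00944% passed. These 2 were Pdp2, whose log2 fold change was 0.56 lower at day 30 than at day 25, and Pdk1. The effect had the same sign at each day for 32 of 35 members, and the exceptions were Pdp2, Sucla2 and Slc25a1. Across the members, the effects at day 25 and day 30 had a Pearson correlation of 0.87, or 0.77 without Got1, as against 0.81 across all genes. Members are not independent replicates, and the points share no mice between the days.

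Within CR mice, day 30 against day 25 called 0 members by limma, with 5 at an unadjusted p under 0.05 and 0 by voom, against 0.321% of all genes. The 5 were Dlat, Pdk1, Mdh1 and Pdha1, which had positive log2 fold changes, and Pdp2, which had a negative one. Within Con mice, day 30 against day 25 also called 0, with 4 at an unadjusted p under 0.05 and 0 by voom, against 0% of all genes. These were Got1, at -0.86, and Mpc1, Suclg2 and Idh1, at 0.35, 0.20 and 0.33. Genes were named here by their unadjusted p after the values were seen.

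Other genes of the same pathways were taken from a written list of 33, of which 28 passed the filter. At day 25, 3 were called higher and 3 lower, where 14.9% of all genes were called, and at day 30, 6 were called higher and 3 lower, where 24.7% were. Gpd1, the cytosolic glycerol phosphate dehydrogenase of the other NADH shuttle, was called lower at each day. Gpd1 was at 141, 123 and 187 FPKM in Con mice and at 61.3, 68.9 and 57.1 FPKM in CR mice at day 25, and at 149, 142 and 96.9 FPKM and at 41.1, 66.3 and 51.8 FPKM at day 30. No CR mouse reached a Con mouse, and the log2 fold change was -1.24 (SE 0.21, adjusted p = 0.00401) at day 25 and -1.27 (SE 0.21, adjusted p = 0.00195) at day 30. Gpd2, its mitochondrial partner, had -0.43 (adjusted p = 0.0747) and -0.13 (adjusted p = 0.561).

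Genes that supply or accompany the cycle were among those called higher. Slc25a51, the mitochondrial carrier of NAD+, had 0.96 (adjusted p = 0.00830) and 0.87 (adjusted p = 0.00827). Pck1, which turns oxaloacetate into phosphoenolpyruvate in gluconeogenesis, was at 1436, 2366 and 2167 FPKM in Con mice and at 2245, 2462 and 2314 FPKM in CR mice at day 25, with overlap. At day 30, Pck1 was at 1209, 1154 and 1094 FPKM in Con mice and at 2731, 1857 and 2510 FPKM in CR mice, without overlap, with log2 fold changes of 0.27 (adjusted p = 0.406) and 1.02 (adjusted p = 0.00344). Pdk4, another pyruvate dehydrogenase kinase and a gene known to respond to fasting, was low, at 0.450 to 1.49 FPKM in the 6 Con mice and 1.03 to 4.18 FPKM in the 6 CR mice, with 0.53 (adjusted p = 0.288) and 1.03 (adjusted p = 0.0304). Nnt, the gene of the mitochondrial transhydrogenase, had 0.14 (adjusted p = 0.254) and 0.33 (adjusted p = 0.00975). Whether these C57Bl/6J mice make a working enzyme from it was not tested. Slc16a1, a carrier of lactate and pyruvate in the plasma membrane, was lower, with -0.59 (adjusted p = 0.0161) and -0.43 (adjusted p = 0.0448).

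Of 12 listed regulators of mitochondrial genes, 4 were called higher at day 25 and 3 at day 30, with 0 lower, where 5.60% and 8.33% of all genes were called higher. Ppargc1a, the coactivator PGC-1alpha, was at 2.63, 3.58 and 3.10 FPKM in Con mice and at 7.34, 3.85 and 6.88 FPKM in CR mice at day 25, and at 1.79, 2.13 and 3.03 FPKM and at 8.22, 3.902 and 6.63 FPKM at day 30. Its groups did not overlap at either day, with log2 fold changes of 0.74 (adjusted p = 0.0772) and 1.10 (adjusted p = 0.00998). Esrra, the estrogen-related receptor alpha that PGC-1alpha coactivates, had 0.41 (adjusted p = 0.0467) and 0.46 (adjusted p = 0.0191), and Foxo1, a forkhead factor held back by insulin, had 0.76 (adjusted p = 0.00639) and 0.82 (adjusted p = 0.00249). Ppara, the fatty acid receptor of fasting, had 0.54 (adjusted p = 0.0469) and 0.15 (adjusted p = 0.542).

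Transcript length and level moved with the CR effect over the whole table. Among genes with under 1500 bases of exon, the median log2 fold change was 0.02 at each day. Among genes of 2500 bases or more it was -0.07 at day 25 and -0.10 at day 30. The 9 members under 1500 bases had medians of 0.27 and 0.37, the 13 members from 1500 up to 2500 bases had 0.17 and 0.24, and the 13 members of 2500 bases or more had 0.10 and 0.07. Called higher at day 30 were 6 of 9, 6 of 13 and 3 of 13 of these, against 9.88%, 9.22% and 7.21% of all genes in the same classes. Across the 35 members, the Spearman correlation of length with log2 fold change was -0.37 at day 25 and -0.38 at day 30, and across all genes it was -0.13 and -0.16. Of the 13 tested members at a mean of 100 FPKM or more, 8 were called higher at day 30, against 24.8% of 537 such genes, and of the 22 below, 7 were, against 7.45% of 10056 genes. With the trend on length removed from each library, 15 members were called higher at day 25, and 20 higher and 1 lower at day 30. Over all genes, that setting called 955 higher and 915 lower at day 25, and 1428 higher and 1375 lower at day 30. Without it, these counts were 593 and 989 at day 25, and 882 and 1737 at day 30. With the trend on length and level removed, 11 members were called higher at day 25, and 17 higher and 1 lower at day 30. Over all genes, 930 were then called higher and 913 lower at day 25, and 1401 higher and 1357 lower at day 30.

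**Figure D5:**
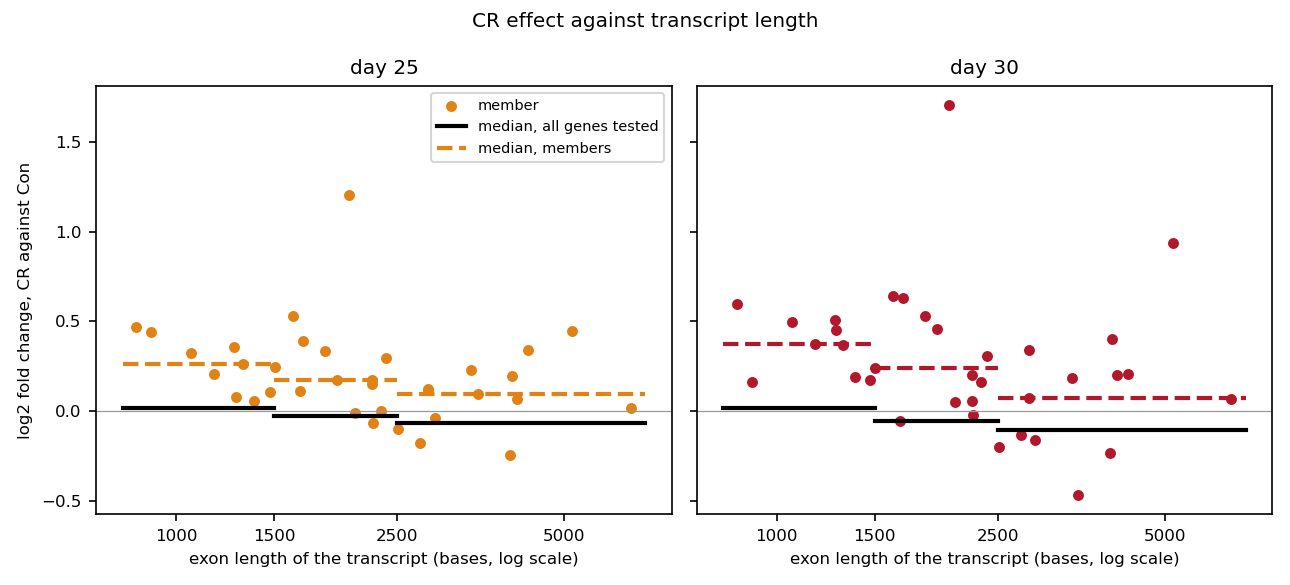
Log2 fold change of each of the 35 tested members against the exon length of its transcript (log axis), at day 25 and day 30, with lines for the medians of members and of all genes tested in 3 classes of length. The medians of members lie above those of all genes in each class, and both fall with length.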

How the data were processed

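Total RNA from frozen liver of 12 mice was sequenced as 100 bp paired-end reads on 1 lane. The submitters' processing notes name CASAVA 1.8.2, FastQC, BWA, DESeq2 and mm10. The authors deposited FPKM values, which the file header records as made with analyzeRepeats.pl, a HOMER program, from exon reads, with 1 RefSeq transcript per gene and no scaling between libraries beyond their size.

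Low FPKM values fall on steps worth 1 read, which gave back whole reads and depth (100% of 1500 values per library within 0.1 of a whole read). The tests used limma 3.58.1 (R 4.3.3) on log2 values of FPKM after adding 1, with genes at or above 1 FPKM in 3 libraries or more. The 4 groups entered 1 model with a trend on expression, CR against Con over both days had day as a covariate, and p-values were adjusted by Benjamini-Hochberg over all 10593 genes, 2-sided. A gene was called at an adjusted p under 0.1. For a single gene, exact permutation of 3 against 3 mice cannot go below 0.1. The labels number the mice without saying more of how samples were kept apart, so p-values measure the spread between these samples.

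In simulated data for CR at day 30 (10535 genes), 84 of 98 genes changed 2-fold and 97 of 100 changed 4-fold were called, with 13 unchanged genes. Smaller changes, such as those of every tested member but Got1, were not simulated, so their recovery is not known. Same-numbered Con and CR mice, numbered by their labels, had deviations that correlated at 0.106 to 0.368 at day 25, so the replicate block is given beside results there. Labels of the Con mice at day 30 do not tell them apart, and column numbers were used. Members and gene lists were chosen with earlier results of these data known. Of the members called in any comparison, the 15 with the largest log2 fold change are given by mouse, with the 3 of highest level among them, and of other pathway genes the 8 with the largest change are named, except 1 that is not reported here. Promoter windows came from RefSeq (GRCm38.p6), which matched 34 of the 37 members. Idh3a, Sdhc and Me2 had no entry. Figures were made with Python 3.11.15 and matplotlib 3.10.9. Alternatives covered the pseudocount, filter, scaling, moderation, groups in the model, threshold, replicate block, voom on recovered reads and leaving out each mouse, and the removal of trends with length and level was added after seeing the data.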

Additional observations from a re-analysis of the deposited data

How the results depend on the processing

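Over the alternatives and the mice left out in turn, 1994 of 2202 repeated results of single members kept their direction and their side of the threshold, 75 lost a call, 84 gained one and 49 changed sign. The count of 6 members called at day 25 became 3 without the filter, 3 with only the groups compared, 1 at an adjusted p under 0.05, 14 under median-ratio scaling, 13 by voom on recovered reads, 15 with the trend on length removed and 11 with the trend on length and level removed. With a mouse left out it was 1 to 4. At day 25, voom called 811 genes of the whole table higher and 846 lower, against 593 and 989 as deposited. The count of 16 at day 30 was 10 to 15 with a mouse left out, and within 1.5 times of 16 under all other alternatives. With the replicate block, counts were 9 at day 25, 17 at day 30 and 21 over both days, where Pdhx was added as lower. Over all genes, the block called 1130 higher and 2135 lower at day 30, against 882 and 1737 without it. At day 30 the same-numbered mice correlated at 0.0456 to 0.181, and mice of different numbers had a mean of -0.0575. Because deviations were taken from the group mean, a positive mean for same-numbered mice forces a negative one for the others. The Con columns of day 30 are not tied to labelled mice, so pairing at that day cannot be told. The block added Idh3b there (adjusted p = 0.0996). The median log2 fold change at day 25 was 0.0845 under quantile normalization. At day 30 it was 0.285 under median-ratio scaling, 0.288 by voom and 0.279 with the trend on length removed. The causes were not tested. Signs turned only for members not called in that comparison. Under median-ratio scaling and voom, the log2 fold change became 0.0212 and 0.00830 for Cs and 0.0526 and 0.0396 for Sucla2 at day 25, 0.0598 and 0.0594 for Dld and 0.0293 and 0.0280 for Slc25a1 at day 30, and 0.0281 and 0.0203 for Dld over both days. Under TPM, it became -0.0170 for Got2 at day 25 and -0.00613 for Sucla2 over both days. Quantile normalization gave -0.0115 for Ogdh, -0.0306 for Suclg1, -0.0168 for Sdhd and -0.0660 for Got2 at day 25, -0.0133 for Idh1 at day 30, and -0.0248 for Sucla2 and -0.0379 for Slc25a1 over both days. With the trend on length removed, it was 0.0133 for Cs and 0.0260 for Sucla2 at day 25, 0.0452 for Dld at day 30 and 0.00965 for Dld over both days. With length and level removed, it was -0.0194 for Suclg1, -0.00279 for Sdhd and -0.0341 for Got2 at day 25 and -0.0193 for Slc25a1 over both days. With a mouse left out at day 25, it ranged from -0.0788 to 0.158 for Pcx, -0.145 to 0.0175 for Dld, -0.0453 to 0.216 for Pdp2, -0.117 to 0.0731 for Cs, -0.0377 to 0.0657 for Ogdh, -0.0331 to 0.145 for Suclg1, -0.0617 to 0.0305 for Sucla2, -0.0681 to 0.0655 for Got2 and -0.00677 to 0.233 for Slc25a1. The same at day 30 was -0.0953 to 0.0547 for Dld and -0.0594 to 0.118 for Idh1, and over both days -0.000716 to 0.0403 for Sucla2 and -0.0321 to 0.0746 for Slc25a1. Counts stayed under 100 reads per library for Mpc1, Pdk3 and Me2, and no other member was as low.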
